A study of Mus musculus with 12 samples.

Results

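Mouse primordial germ cell-like cells (PGCLCs) that lack DNA methyltransferases were compared after a long and a short priming step, 96 h against 48 h, by RNA sequencing. The 6 libraries were chosen by their sample titles from the 12 of the series: 3 biological replicates of TKO cells primed for 96 h (TKO_96h) and 3 primed for 48 h (TKO_48h). TKO names a line derived from E14TG2a, a mouse embryonic stem cell line. All 3 active DNA methyltransferase genes, Dnmt1, Dnmt3a and Dnmt3b, are knocked out in it according to what is known of the study, and the knockouts are shared by both groups. The stem cells were kept in 2i medium with LIF and vitamin C, primed to epiblast-like cells (EpiLCs), and then cultured for 4 days as floating aggregates in the presence of LIF, SCF, EGF, BMP8 and BMP4. The 2 groups differ in the priming time, and so also in the total time in culture since the stem cell state. TKO cells primed for 40 h (TKO_40h) and wild-type E14 cells primed for 40 h (WT_40h), 3 libraries each, entered the same fit and are given as reference levels. The titles name no separate clones. The labels describe dissociation for flow cytometry, and the sources used here do not say whether the RNA was taken after sorting or from all cells of the aggregates. The culture dates and oxygen level are also not given there, so a difference between culture runs and the priming time cannot be told apart.

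Priming moves naive stem cells into a formative state like that of the early post-implantation epiblast, which can answer BMP4 by forming germ cells. Competence for this is known to be passing, and epiblast-like cells kept longer go on to a primed state. The germ cell programme is set by the transcription factors Prdm1, Prdm14 and Tfap2c. In oxygen sensing, the pathway that much of the account below turns on, prolyl hydroxylases of the Egln family mark the HIF alpha subunits for destruction when oxygen is present. Stabilised HIF pairs with Arnt and activates genes for glucose uptake, glycolysis, lactate export, angiogenesis and mitophagy.

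The 6 libraries held 6570180 to 7362584 estimated counts in TKO_48h and 7090449 to 7828031 in TKO_96h. Replicate 1 of TKO_48h stood apart from replicates 2 and 3. It had 13562 genes with at least 10 counts, against up to 15272 in its group, and its 10 most abundant genes took 14.6% of its counts, the highest share in its group. Ribosomal RNA made up 1.78 to 2.15% of a TKO_48h library and 1.24 to 1.63% of a TKO_96h library, so this sign of library composition moved with the groups, and its part in the results was not tested. Replicate 1 of TKO_96h took 3.06% of its counts from Lars2 and Ccnb1ip1, and the lowest library of its group took 1.48%. Some list counts are given with and without either replicate. A count given alone was not always unchanged without them.

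The targeted genes were still transcribed, at higher levels in TKO_96h than in TKO_48h. The maintenance enzyme Dnmt1 (chromosome 9 of GRCm38, 20907209 to 20959888) was at 64.9, 121 and 74.4 CPM in TKO_48h, where CPM are counts scaled to normalised library sizes. It was at 148, 132 and 152 CPM in TKO_96h, a log2 fold change of 0.73 ± 0.16 (SE, edgeR quasi-likelihood test, Benjamini-Hochberg adjusted p = 0.0032). Both groups lay far below the mean of 439 CPM in WT_40h. Dnmt3a, a de novo methyltransferase, was at 25.4, 48.7 and 31 CPM in TKO_48h and 57.4, 73.1 and 60.8 CPM in TKO_96h (log2 fold change 0.86 ± 0.17, adjusted p = 0.0016). Its WT_40h mean was 406 CPM. With an effective length offset the Dnmt3a call ended (0.48, adjusted p = 0.24). The second de novo enzyme, Dnmt3b, was at 13.4, 21.8 and 19.7 CPM in TKO_48h and 27.6, 33.9 and 35.3 CPM in TKO_96h (0.81 ± 0.18, adjusted p = 0.0038), with a WT_40h mean of 185 CPM. TKO_40h stood at mean levels of 120 CPM for Dnmt1, 64.3 CPM for Dnmt3a and 47.9 CPM for Dnmt3b, each above the TKO_48h mean. TKO_96h minus TKO_40h was 0.26 for Dnmt1 (adjusted p = 0.33), -0.01 for Dnmt3a (adjusted p = 0.98) and -0.57 for Dnmt3b (adjusted p = 0.035). Gene counts do not show whether a transcript carries a knockout allele. Their untargeted partner Dnmt3l, which has no catalytic activity, went the other way, from 372, 274 and 359 CPM in TKO_48h to 168, 177 and 157 CPM in TKO_96h (-1.0 ± 0.12, adjusted p = 5.4e-06).

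Of 16179 genes tested, 3158 were called at an adjusted p below 0.05, which is 19.5%. Of these 1427 were higher in TKO_96h (8.82% of all tested) and 1731 lower (10.7%). Large changes lay mostly on the lower side: 826 genes were called at least 2-fold lower (5.11%) and 268 at least 2-fold higher (1.66%), while 137 were at least 8-fold lower and 31 at least 8-fold higher. The median log2 fold change over all genes was 0.01. Correcting for effective transcript length with an offset left 1639 genes called, 947 lower and 692 higher. RNA was measured in bulk, so fewer cells of a type and less RNA per cell cannot be told apart.

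**Figure D1:**
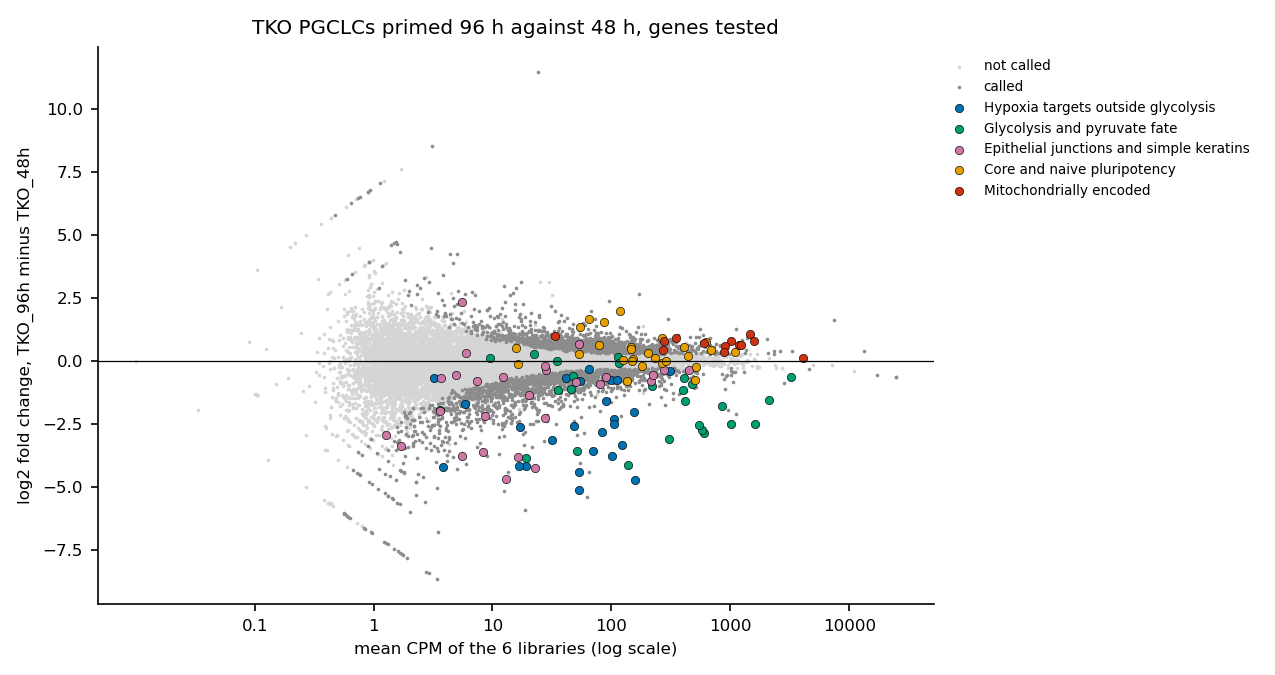
Log2 fold change, TKO_96h minus TKO_48h, against mean CPM over the 6 libraries (log scale), 1 point a gene tested; dark grey points were called and coloured points are members of 5 lists. Hypoxia and glycolysis members lie mostly below 0, 23 of 25 and 21 of 26 of them called lower, and 11 of 13 mitochondrially encoded genes were called higher; the topmost point is the pseudogene Rpl10-ps3, at 0 in TKO_48h and at a mean of 47.8 CPM in TKO_96h.

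Hypoxia-inducible genes were lower after 96 h almost throughout, with the lowest median of the 41 gene lists compared. In a list of 26 known HIF targets outside glycolysis, 25 were tested, 23 were lower and none higher, against 10.7% of all genes called lower. The median log2 fold change of the 25 was -2.58, and in 24 of them all 3 TKO_96h libraries lay below all 3 TKO_48h libraries, as in 17.1% of all genes. The summed level of the list was 3165, 3050 and 2813 CPM in TKO_48h and 824, 862 and 866 CPM in TKO_96h. Mean sums were 1981 CPM in TKO_40h and 2414 CPM in WT_40h, so that TKO_48h was the highest of the 4 groups and TKO_96h the lowest. The number of members lower stayed between 20 and 24 under all 16 alternatives, and was 23 without TKO_48h replicate 1 and 23 without TKO_96h replicate 1. The 2 members not called, named after their values were seen, were Jmjd6, a hydroxylase (-0.31, adjusted p = 0.1), and Pfkfb4, a regulator of glycolysis (-0.69, adjusted p = 0.52).

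HIF binds short DNA sites built on RCGTG, where R is A or G, and the starts of 3 leading members of this list and 3 of the glycolysis list are shown for where these letters lie. The windows come from RefSeq on GRCm38.p6 and run from 250 bases before to 50 after the transcript start, 5′ to 3′ on the gene's own strand. Capitals mark ACGTG or GCGTG on either strand.
P4ha1, chr10:59323046-59323345, plus strand: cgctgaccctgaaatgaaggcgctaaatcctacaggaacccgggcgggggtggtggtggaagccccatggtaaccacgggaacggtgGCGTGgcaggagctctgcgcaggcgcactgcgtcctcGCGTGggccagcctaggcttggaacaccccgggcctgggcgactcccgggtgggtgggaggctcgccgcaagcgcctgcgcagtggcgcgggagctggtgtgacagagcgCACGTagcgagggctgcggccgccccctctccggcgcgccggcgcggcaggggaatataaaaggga
Bnip3, chr7:138909457-138909756, minus strand: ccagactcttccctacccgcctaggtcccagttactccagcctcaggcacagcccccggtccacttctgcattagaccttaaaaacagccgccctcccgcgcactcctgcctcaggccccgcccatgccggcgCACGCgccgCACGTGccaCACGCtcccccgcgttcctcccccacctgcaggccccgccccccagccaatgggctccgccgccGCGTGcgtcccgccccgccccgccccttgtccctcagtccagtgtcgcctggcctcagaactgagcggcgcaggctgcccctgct
Egln3, chr12:54203825-54204124, minus strand: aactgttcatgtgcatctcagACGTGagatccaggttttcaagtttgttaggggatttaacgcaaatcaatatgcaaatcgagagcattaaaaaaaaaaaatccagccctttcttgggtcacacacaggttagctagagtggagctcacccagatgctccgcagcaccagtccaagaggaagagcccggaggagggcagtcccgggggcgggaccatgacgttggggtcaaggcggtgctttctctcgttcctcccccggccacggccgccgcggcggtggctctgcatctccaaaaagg
Slc16a3, chr11:120948817-120949116, plus strand: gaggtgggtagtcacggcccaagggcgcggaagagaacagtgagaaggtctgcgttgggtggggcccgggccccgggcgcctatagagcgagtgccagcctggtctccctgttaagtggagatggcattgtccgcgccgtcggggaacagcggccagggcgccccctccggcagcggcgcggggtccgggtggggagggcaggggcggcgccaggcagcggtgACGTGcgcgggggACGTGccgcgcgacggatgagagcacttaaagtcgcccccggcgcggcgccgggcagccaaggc
Pfkl, chr10:78009758-78010057, minus strand: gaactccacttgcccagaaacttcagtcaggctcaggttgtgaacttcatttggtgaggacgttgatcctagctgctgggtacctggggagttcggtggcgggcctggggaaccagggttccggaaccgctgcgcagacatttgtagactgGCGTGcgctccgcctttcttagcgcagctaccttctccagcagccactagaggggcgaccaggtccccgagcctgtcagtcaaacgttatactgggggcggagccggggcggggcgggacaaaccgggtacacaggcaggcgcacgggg
Slc2a1, chr4:119108495-119108794, plus strand: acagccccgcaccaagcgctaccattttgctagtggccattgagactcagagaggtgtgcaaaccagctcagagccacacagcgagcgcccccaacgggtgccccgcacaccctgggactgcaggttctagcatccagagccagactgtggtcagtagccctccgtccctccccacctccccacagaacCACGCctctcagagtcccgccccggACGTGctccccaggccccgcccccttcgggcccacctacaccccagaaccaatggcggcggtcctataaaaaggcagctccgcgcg

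In the window of P4ha1 the letters stood 163, 126 and 16 bases before the start, as counted to the first base of the match. The Bnip3 window held 5 matches, of which a pair overlap in CACGTG, 108 and 107 bases before the start. The Egln3 and Pfkl windows held 1 match each, and those of Slc16a3 and Slc2a1 a pair each. Among the hypoxia genes that fell, 18 of 23 had a window in the RefSeq table, and 15 of these (83.3%) held the letters. So did both of the members not called. Among the glycolysis genes that fell, 14 of 20 windows (70.0%) held them, as did all 5 of the members not called. The letters are common: 59.8% of the 11783 tested genes with a window held them, and 43.8% of all 27025 windows. The motif was searched after the values were seen, and a match is not evidence of binding.

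P4ha1, a collagen prolyl hydroxylase subunit (chromosome 10, 59323296 to 59373304), had the smallest adjusted p of the list. Its level was 198, 193 and 176 CPM in TKO_48h and 14, 13.9 and 13.2 CPM in TKO_96h, a log2 fold change of -3.79 ± 0.12 (adjusted p = 3.3e-14). Bnip3, a mitophagy receptor (chromosome 7, 138890836 to 138909519), was at 330, 302 and 287 CPM against 11.3, 14.8 and 8.84 CPM (-4.71 ± 0.16, adjusted p = 1.9e-13). In both genes the lowest TKO_48h library was more than 8-fold above the highest TKO_96h library. Bhlhe40, a repressor of the clock and of differentiation genes, was at 248, 226 and 198 CPM against 23.3, 18.1 and 26 CPM (-3.32 ± 0.14, adjusted p = 1.3e-12). Ndrg1, a stress-responsive gene, was at 115, 101 and 87.1 CPM against 5.13, 5.18 and 4.09 CPM (-4.39 ± 0.22, adjusted p = 2e-11). Secreted members, named after their values were seen, fell as well. Vegfa, the main angiogenic growth factor, was at 124, 167 and 99.9 CPM against 12.2, 4.76 and 15.4 CPM (-3.58 ± 0.26, adjusted p = 8.5e-09). Adm, a vasodilator peptide, was at 36.1, 32.6 and 25.7 CPM against 2.26, 2.52 and 0.528 CPM (-4.16 ± 0.38, adjusted p = 3e-07).

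The change was uneven inside the list. Mxi1, Ak4, Bnip3l, Higd1a and Kdm3a, also named after their values were seen, fell by 0.8, 0.76, 0.75, 0.66 and 0.39 on the log2 scale. Bnip3 and its paralogue Bnip3l, both mitophagy receptors, thus differed in size of change: mean CPM went from 306 to 11.7 for Bnip3 and from 124 to 73.4 for Bnip3l.

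Among the oxygen sensors, the hydroxylases that are themselves HIF targets fell and the alpha subunit Hif1a rose. In a list of 10 genes, 4 were lower and 1 higher, against 10.7% and 8.82% of all genes. Egln3, an oxygen-dependent prolyl hydroxylase that is also in the list above (chromosome 12, 54178981 to 54203860), was at 124, 91.9 and 96.3 CPM in TKO_48h and 2.87, 3.5 and 2.64 CPM in TKO_96h (-5.11 ± 0.21, adjusted p = 1.1e-12). Egln1, the main prolyl hydroxylase, was at 179, 182 and 163 CPM against 30.5, 36.7 and 39 CPM (-2.30 ± 0.12, adjusted p = 3.3e-11). Hif1a was at 116, 119 and 118 CPM against 166, 184 and 193 CPM (0.62 ± 0.10, adjusted p = 0.00021), so that its transcripts were higher where those of its targets were lower. With the effective length offset this difference in Hif1a was 0.17 (adjusted p = 0.56). Arnt2, a partner subunit, was at 27, 21.8 and 18.7 CPM against 8.15, 9.52 and 11.2 CPM (-1.22 ± 0.28, adjusted p = 0.004, and 0.29 with the length offset). Hif3a was lower too (-1.31 ± 0.39, adjusted p = 0.023), a call that ended without TKO_48h replicate 2 (adjusted p = 0.12), without TKO_96h replicate 1 (adjusted p = 0.093) and without TKO_96h replicate 2 (adjusted p = 0.1). With the length offset Hif3a was at -0.42 (adjusted p = 0.66). Epas1, Egln2, Vhl, Hif1an and Arnt were not called, with log2 fold changes between -0.33 and 0.21. HIF protein was not measured.

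Glycolysis followed the hypoxia genes from glucose entry to lactate export. Of 26 listed genes 21 were lower and none higher, against 10.7% and 8.82% of all genes, with a median log2 fold change of -1.35. Their summed level was 22636, 17756 and 19246 CPM in TKO_48h and 7204, 6851 and 6816 CPM in TKO_96h. The mean sums of TKO_40h and WT_40h were 15022 and 16263 CPM, above TKO_96h and below TKO_48h. The count of lower members was 20 without TKO_48h replicate 1, which had the highest sum, and 19 to 21 over all 16 alternatives.

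Both glucose transporters fell. Slc2a3, the neuronal-type carrier, was at 3026, 2543 and 2642 CPM in TKO_48h and 444, 498 and 525 CPM in TKO_96h (-2.48 ± 0.10, adjusted p = 8.2e-13). Slc2a1, the general carrier, was at 1262, 923 and 1003 CPM against 156, 151 and 136 CPM (-2.85 ± 0.12, adjusted p = 1.1e-12). Of the upper pathway, the kinase subunit Pfkl was at 660, 479 and 513 CPM against 72.2, 62.6 and 58.3 CPM (-3.10 ± 0.13, adjusted p = 1.1e-12). The aldolase Aldoa was at 1991, 1542 and 1676 CPM against 307, 291 and 325 CPM (-2.50 ± 0.10, adjusted p = 1.1e-12). Paralogues of 1 step differed in size. The phosphofructokinase subunits Pfkp and Pfkm fell by 1.15 each on the log2 scale, against 3.10 for Pfkl. At the end of the pathway Slc16a3, the lactate exporter of glycolytic cells (chromosome 11, 120948480 to 120960868), was at 289, 227 and 260 CPM against 10.4, 16.8 and 16.4 CPM (-4.15 ± 0.15, adjusted p = 3.2e-13).

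The other members were named after their values were seen. Pgk1, an ATP-forming kinase, fell by 2.74 and Ldha, which makes lactate, by 2.55. Pkm, the pyruvate kinase, fell by 1.55, Pdk1, which restrains pyruvate oxidation, by 0.98, and Hk2, a hexokinase, by 0.66. Gapdh, often used as a reference gene, fell by 0.65 (adjusted p = 0.00015). Gapdh, Tpi1, Pgk1, Ldha and Aldoa have processed pseudogenes that may share reads, so their counts are uncertain. The 5 members not called sit at the entry of pyruvate into mitochondria or in lactate uptake. Slc16a1 had a log2 fold change of -0.07, Ldhb of -0.02, Mpc2 of 0.13, Pdha1 of 0.15 and Mpc1 of 0.26. Levels per length (TPM) gave a changed order between genes: Pkm, Aldoa and Slc2a3 had mean levels of 766, 717 and 581 TPM in TKO_48h and of 329, 153 and 122 TPM in TKO_96h.

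**Figure D2:**
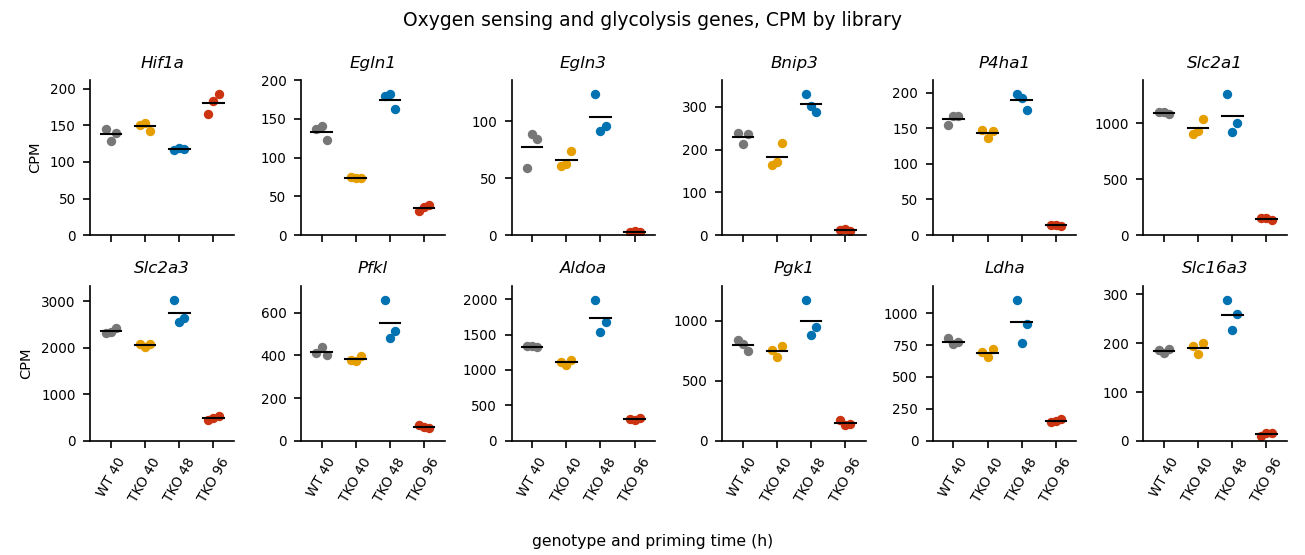
CPM in every library for 12 oxygen sensing and glycolysis genes by genotype and priming time (WT 40 h, TKO 40 h, TKO 48 h, TKO 96 h); points are libraries and bars group means over 3. The TKO 96 h points lie below every other point for all but Hif1a, for which they lie above the TKO 48 h points.

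The fall was also seen against the shorter priming time. TKO_96h minus TKO_40h, a comparison that shares the TKO_96h libraries, gave -4.45 ± 0.21 for Egln3, -3.98 ± 0.16 for Bnip3, -3.71 ± 0.15 for Slc16a3 and -2.57 ± 0.13 for Pfkl, each with an adjusted p of at most 2.2e-11. TKO_48h minus TKO_40h, which shares the TKO_48h libraries, went the other way for several of them. Bhlhe40 was higher in TKO_48h by 1.47 ± 0.13 (adjusted p = 1.8e-06), Egln1 by 1.24 ± 0.11 (adjusted p = 3.1e-06) and Ndrg1 by 1.24 ± 0.18 (adjusted p = 0.00036). For Slc2a1 that difference was 0.15 ± 0.11 (adjusted p = 0.52). For Egln1, Bhlhe40, Egln3, Bnip3, P4ha1 and Ndrg1 the TKO_40h mean lay between the others. For Egln1 it was 74.2 CPM, against 175 CPM in TKO_48h and 35.4 CPM in TKO_96h.

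Transcripts of the respiratory chain were somewhat higher after 96 h. Of the 13 genes encoded by the mitochondrial genome, 11 were higher, against 8.82% of all genes, and none lower, with a median log2 fold change of 0.72. Their sum was 11687, 10219 and 11991 CPM in TKO_48h and 19500, 15666 and 14230 CPM in TKO_96h, with mean sums of 12877 CPM in TKO_40h and 14163 CPM in WT_40h. The lowest TKO_96h library was thus close to the WT_40h mean. Cytochrome b (mt-Cytb) was at 1000, 811 and 1059 CPM in TKO_48h and 2354, 1918 and 1695 CPM in TKO_96h (1.06 ± 0.12, adjusted p = 6e-06). The complex I subunit mt-Nd5 was at 1053, 1250 and 1222 CPM against 1927, 2043 and 2076 CPM (0.78 ± 0.10, adjusted p = 1.7e-05). mt-Co1 and mt-Co2, of complex IV, were not called (0.12 and 0.34). Of 34 nuclear genes of the chain and its regulators, 7 were higher and none lower, with a median of 0.30. Cycs, the electron carrier cytochrome c, was at 71, 49.6 and 54.8 CPM against 125, 98.3 and 87.6 CPM (0.83 ± 0.16, adjusted p = 0.00088). Ndufs1, a complex I subunit, was at 99.5, 85.5 and 93.6 CPM against 150, 136 and 132 CPM (0.59 ± 0.10, adjusted p = 0.00041). The nuclear count of 7, beside 8.82% of all genes called higher, was 3 without TKO_48h replicate 2, 4 without TKO_48h replicate 3, 3 without TKO_96h replicate 1 and 2 with the length offset.

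The largest single decreases were led by genes at or near 0 counts after 96 h. Gem, a small GTPase that binds calcium channels, had 115 counts in TKO_48h and none in TKO_96h, at least 40.2-fold lower taking 3 counts in the whole group as the floor. Apoa4, an apolipoprotein, had 114 counts and none, at least 39.9-fold lower. Kif17, a kinesin, had 108 counts against 2, a ratio of 56.7 (95% interval for counting error 15.3 to 474). Ndufa4l2, a HIF-induced mitochondrial protein, was at 41.6, 24.1 and 45.9 CPM in TKO_48h and 0, 0 and 1.71 CPM in TKO_96h (-5.90 ± 0.53, adjusted p = 2.1e-07). These genes were low in TKO_48h to begin with, except Ndufa4l2. Among genes with at least 100 CPM, Loxl2, a lysyl oxidase that crosslinks collagen (chromosome 14, 69609068 to 69695834), fell the most. It was at 124, 110 and 130 CPM against 4.23, 2.8 and 1.71 CPM (-5.39 ± 0.20, adjusted p = 2.5e-13). Anxa2, a calcium-dependent membrane-binding protein, was at 139, 115 and 118 CPM against 7.7, 2.94 and 6.99 CPM (-4.40 ± 0.21, adjusted p = 1.1e-11). Egln3, Bnip3 and Ndrg1 make up the rest of the 5 with at least 100 CPM. Ier3 (-5.18), Ebf4 (-5.03), Krt19 (-4.69) and Rnf128 (-4.43) complete the 12 largest.

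The largest increases were smaller and mostly in genes of low level. Among the 12 were Pgbd1, a gene derived from a transposase (0, 0.669 and 0 CPM in TKO_48h and 6.19, 3.92 and 7.25 CPM in TKO_96h, 4.5 ± 0.92, adjusted p = 0.0017), and Cyp2b23, a cytochrome P450 (4.26 ± 0.71, adjusted p = 0.00026). Pramel6, a gene of preimplantation embryos and naive stem cells, was at 0.172, 1.07 and 0 CPM against 12.5, 7 and 5.67 CPM (4.24 ± 0.90, adjusted p = 0.0023). Catip rose by a log2 fold change of 3.87, Atp1a4 by 3.12, Soga3 by 2.89, Ms4a14 by 2.80, Ccdc7b by 2.70, Rpl39l by 2.69, Moap1 by 2.69 and Cphx1 by 2.63. The calls of Ccdc7b and Moap1 were lost with the length offset (adjusted p = 0.055 and 0.12). Moap1 was also lost with DESeq2 (adjusted p = 0.16), with a robust fit (adjusted p = 0.15) and without TKO_48h replicate 2 or 3 (adjusted p = 0.11 and 0.14) or TKO_96h replicate 1, 2 or 3 (adjusted p = 0.11, 0.063 and 0.1). Rpl39l, a testis-type ribosomal protein, was at 3.26, 2.14 and 6.53 CPM against 37.9, 18.5 and 21.2 CPM. With at least 100 CPM the leading increases were Olfr1459, a gene annotated as an olfactory receptor (2.65 ± 0.26), Ttn, the giant muscle protein titin (1.98 ± 0.20), Spp1 (1.98 ± 0.16), the histone gene Hist2h2bb (1.68 ± 0.26) and the zinc finger gene Zfp936 (1.66 ± 0.15), each with an adjusted p of at most 0.00014. Ttn shows how the reference matters: its mean was 100 CPM in TKO_40h, and TKO_96h minus TKO_40h was 0.11 (adjusted p = 0.79).

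**Figure D3:**
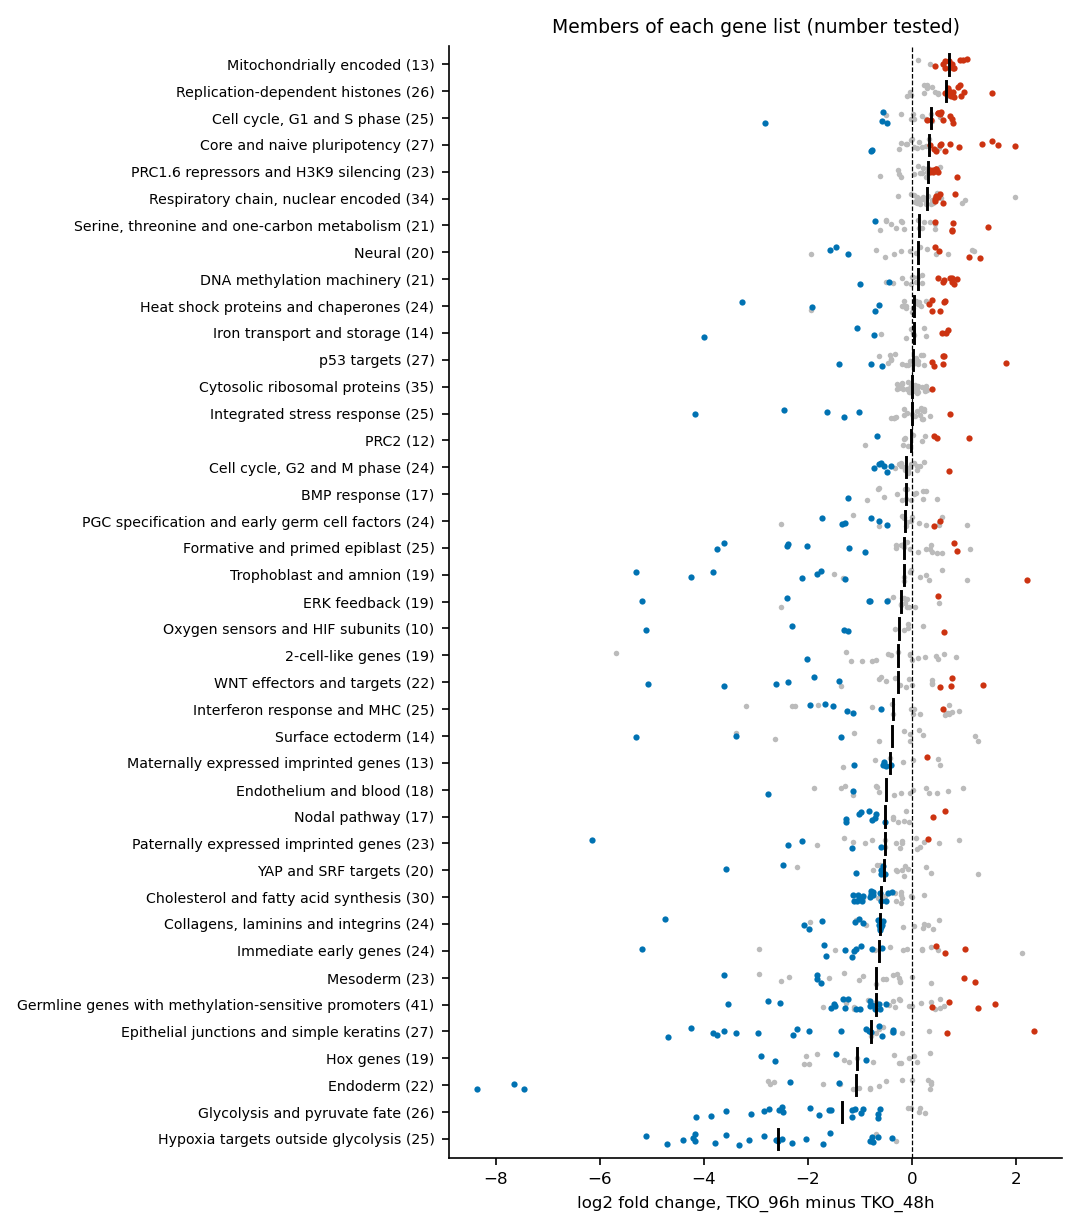
Log2 fold change, TKO_96h minus TKO_48h, of every tested member of 41 gene lists, ordered by median (black bar); blue points were called lower, red points higher and grey points were not called, and the dashed line is the median of all genes, 0.01. Hypoxia targets and glycolysis have the lowest medians, -2.58 and -1.35, and the mitochondrially encoded genes the highest, 0.72.

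Lipid synthesis fell by a smaller factor. Of 30 genes of cholesterol and fatty acid synthesis, 17 were lower and none higher, against 10.7% and 8.82% of all genes. The median log2 fold change of the list was -0.60. Their sum was 5046, 3796 and 4542 CPM in TKO_48h and 2792, 2891 and 3000 CPM in TKO_96h, without overlap. Srebf2, the transcription factor that drives the pathway when sterols are low, was at 404, 304 and 327 CPM against 160, 186 and 190 CPM (-0.95 ± 0.11, adjusted p = 7.2e-06). The desaturase Scd2 was at 761, 579 and 679 CPM against 303, 323 and 344 CPM (-1.06 ± 0.11, adjusted p = 1e-06). The sterol oxidase Msmo1 was at 195, 141 and 161 CPM against 88.6, 62.4 and 76.5 CPM (-1.13 ± 0.14, adjusted p = 1e-05). In both genes the groups did not overlap. A sterol element, CACCCCAC on either strand, was in 1 of 11 windows (9.1%) of the genes that fell and in 3.0% of tested genes, a single match.

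Most of the epithelial genes listed were lower after 96 h, among them the simple keratins Krt8, Krt18 and Krt19. Of 27 genes of junctions, simple keratins and their regulators, 18 were lower and 2 higher, against 10.7% and 8.82% of all genes. The median log2 fold change was -0.79. The lower count was 14 without TKO_48h replicate 1 and 13 without TKO_96h replicate 1. Krt8 and Krt18 pair into the filaments of simple epithelia. Krt8 was at 51.5, 37.3 and 41.8 CPM in TKO_48h and 2.11, 2.38 and 2.37 CPM in TKO_96h (-4.24 ± 0.24, adjusted p = 1.5e-10). Krt18 was at 39.3, 26.1 and 26.8 CPM against 3.02, 1.4 and 2.11 CPM (-3.82 ± 0.40, adjusted p = 1.6e-06). Krt8 and Krt18 have pseudogene copies, and their counts are uncertain. Krt19, which has the same role, was at 30.1, 23.3 and 22.2 CPM against 2.87, 0 and 0.132 CPM (-4.69 ± 0.62). Tight junction claudins fell too: Cldn6 was at 17, 15.2 and 14.3 CPM against 0.755, 1.12 and 1.85 CPM (-3.61 ± 0.37), and Cldn7 had a log2 fold change of -3.75 ± 0.45. Esrp1, which sets epithelial splicing, was at 37.8, 49.7 and 50.4 CPM against 12.7, 9.52 and 6.33 CPM (-2.28 ± 0.21). The adhesion genes shared with pluripotent cells, named after their values were seen, moved less. Epcam fell by 0.89 and Cdh1, E-cadherin, by 0.37 (adjusted p = 0.021). The 2 higher members, likewise named after their values were seen, were Cd24a, a surface glycoprotein (0.67), and Krt42, a keratin (2.35, adjusted p = 0.04); 1 member was higher without any 1 of 5 of the 6 libraries.

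The matrix beneath an epithelium fell as well. Of 24 collagens, laminins and integrins 14 were lower and none higher, against 10.7% and 8.82% of all genes, with a median of -0.62. The sum of the list went from 4267 to 4695 CPM in TKO_48h to 2617 to 3193 CPM in TKO_96h. In TPM the sums overlapped, 446 to 573 in TKO_48h and 394 to 513 in TKO_96h. Col4a1, a chain of basement membrane collagen, was at 344, 334 and 282 CPM against 95.6, 81.3 and 115 CPM (-1.72 ± 0.15, adjusted p = 1.5e-07). Its partner Col4a2 was at 127, 143 and 115 CPM against 33.5, 28 and 36.7 CPM (-1.97 ± 0.15, adjusted p = 1.2e-08). Lama5, a laminin chain, was at 301, 326 and 270 CPM against 122, 147 and 176 CPM (-1.01 ± 0.12, adjusted p = 8.6e-06). The receptors Itga3 and Itgb1 fell by 1.1 and 0.62. Of 20 targets of YAP and SRF, the mechanical signalling factors, 7 were lower and none higher. Ccn2, a matricellular protein, was at 32.5, 32.4 and 35.5 CPM against 13.6, 17.8 and 16.4 CPM (-1.07 ± 0.21, adjusted p = 0.0011), and Thbs1 (-3.57), Cnn2 (-2.47), Tpm1 (-0.60) and Flna (-0.59) were lower. The Flna call was lost with the length offset (-0.46, adjusted p = 0.15).

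**Figure D4:**
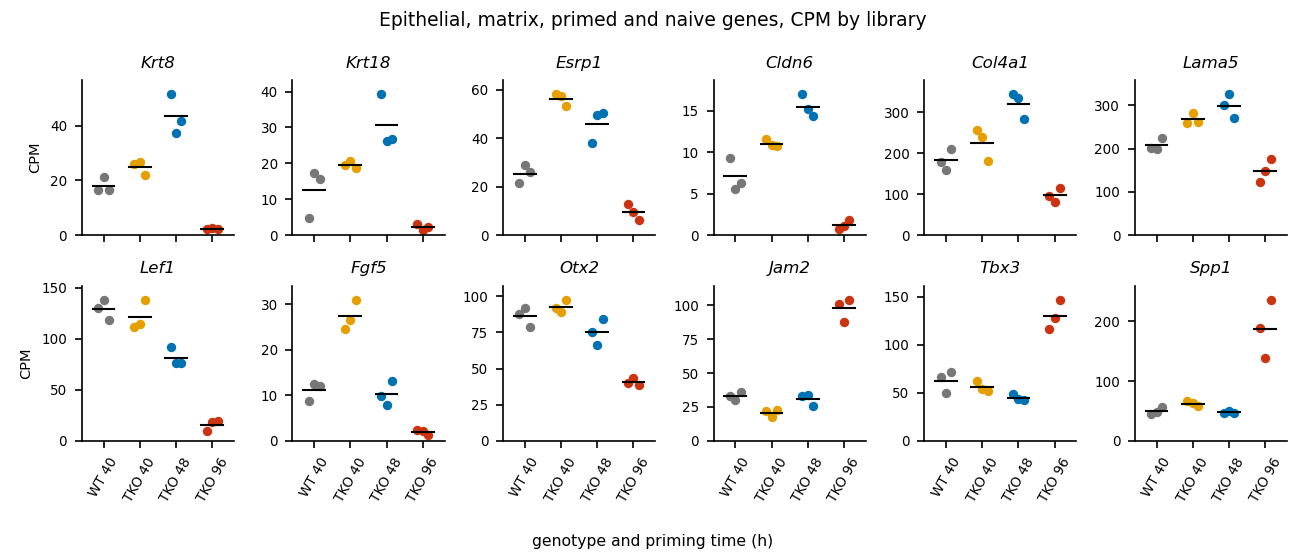
CPM in every library for epithelial and matrix genes (Krt8 to Lama5), genes of the primed or formative epiblast (Lef1, Fgf5, Otx2) and naive stem cell genes (Jam2, Tbx3, Spp1) by genotype and priming time; points are libraries and bars means over 3. The 3 TKO 96 h libraries lie below the 3 TKO 48 h libraries in Krt8 to Otx2 and above them in Jam2, Tbx3 and Spp1.

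Among germ cell factors, Prdm1 and Tfap2c were lower after 96 h while Prdm14 was not called. All 25 listed genes had counts in both groups, though Nanos3, a germ cell RNA-binding protein, had mean levels of only 2.73 CPM in TKO_48h and 1.76 CPM in TKO_96h. Of 24 tested, 6 were lower and 2 higher, and the median was -0.13. Prdm1, the repressor of somatic genes (chromosome 10, 44437177 to 44528501), was at 37.1, 27.7 and 38.4 CPM in TKO_48h and 11.2, 7.14 and 12.8 CPM in TKO_96h (-1.73 ± 0.23, adjusted p = 2.9e-05). Tfap2c, which acts downstream of it (chromosome 2, 172549593 to 172558622), was at 65.6, 74.4 and 65.2 CPM against 26.9, 35.4 and 22 CPM (-1.28 ± 0.17, adjusted p = 2.6e-05). Prdm14, the other of the 3 core factors and named after its values were seen, was at 13.1, 15.5 and 22 CPM against 16.6, 13.6 and 16.9 CPM, with overlapping groups (-0.11, adjusted p = 0.82). Dppa3, a protein of germ cells and oocytes, was at 60.6, 39.2 and 41.8 CPM against 21, 17.5 and 17.1 CPM (-1.35 ± 0.20, adjusted p = 9.7e-05). Dppa3 in TKO_96h was near the WT_40h mean of 16.7 CPM, and TKO_40h stood at 51.5 CPM. Klf2, a naive factor (-0.79), Alpl, the phosphatase used as a germ cell stain (-0.47), and Ifitm1, a surface protein (-0.63, adjusted p = 0.047), were also lower. Sall4, a zinc finger factor of stem and germ cells, was at 345, 302 and 343 CPM against 426, 480 and 533 CPM (0.54 ± 0.11, adjusted p = 0.0016), and Pou5f1 rose too (0.43 ± 0.12, adjusted p = 0.012). The count of 6 is a larger share than the 10.7% of all genes, and it was 4 with the length offset. The 2 higher are a share near the 8.82% of all genes, and 1 was higher without TKO_96h replicate 1.

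Genes of the later germline, whose promoters are known to be held silent by DNA methylation, were mixed. Of 41 tested 18 were lower and 4 higher, against 10.7% and 8.82% of all genes, with a median of -0.68. The lower count was 12 with the length offset. The sum of the list was 1125, 1115 and 1172 CPM in TKO_48h and 985, 943 and 879 CPM in TKO_96h. Mean sums were 1327 CPM in TKO_40h and 1275 CPM in WT_40h. In TPM the sums overlapped and the direction was the opposite: 318 to 428 (mean 374) in TKO_48h and 367 to 471 (mean 426) in TKO_96h. Ddx4, the germ cell RNA helicase, was at 44.8, 39.7 and 38.4 CPM against 18.9, 18.5 and 11.7 CPM (-1.33 ± 0.19, adjusted p = 4.4e-05). Piwil2, which binds piRNAs, was at 35, 26.2 and 40.3 CPM against 13.6, 14.3 and 13.7 CPM (-1.29 ± 0.20, adjusted p = 0.00012). Smc1b, a meiotic cohesin subunit, was at 109, 141 and 151 CPM against 62.2, 69.8 and 57.8 CPM (-1.08 ± 0.14, adjusted p = 1.4e-05). In each of these 3 the groups did not overlap. Rhox13, an X-linked homeobox gene of germ cells, was at 11.2, 9.23 and 10.7 CPM against 41.1, 27.2 and 25.7 CPM (1.6 ± 0.22, adjusted p = 4.8e-05). Rpl10l, a testis ribosomal protein, was at 48.6, 28.1 and 35.4 CPM against 96.8, 88.9 and 83.4 CPM (1.27 ± 0.17, adjusted p = 3.4e-05). The other 2 higher members, named after their values were seen, were Dazl, an RNA-binding regulator of germ cell entry (0.71 ± 0.14), and Tex19.1, a retrotransposon control gene (0.39, adjusted p = 0.033). The E-box CACGTG lay in 6 of 15 windows (40.0%) of the members that fell, in 9 of 17 (52.9%) of those not called and in 0 of 4 of those that rose, against 9.6% of all tested genes.

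**Figure D5:**
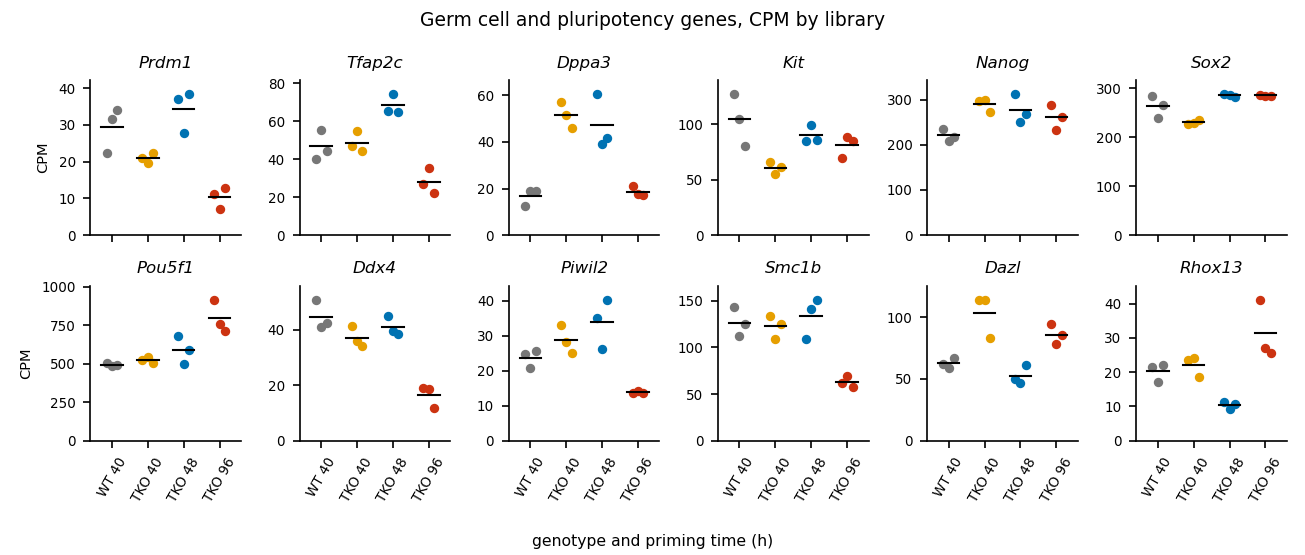
CPM in every library for germ cell specification genes, pluripotency genes and germline genes by genotype and priming time; points are libraries and bars means over 3. Prdm1, Tfap2c, Dppa3, Ddx4, Piwil2 and Smc1b are lower in TKO 96 h than in TKO 48 h, Dazl and Rhox13 higher, and Kit, Nanog and Sox2 overlap.

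Several naive pluripotency genes were higher after 96 h. Of 27 core and naive genes 12 were higher, 2 lower and 13 not called, against 8.82% and 10.7% of all genes called higher and lower. The median was 0.32, and 10 to 13 were higher under the 16 alternatives. Spp1, a secreted phosphoprotein, was at 46.9, 49.1 and 46.7 CPM in TKO_48h and 189, 138 and 236 CPM in TKO_96h (1.98 ± 0.16, adjusted p = 3.4e-08). Jam2, a junctional molecule of naive cells, was at 33.3, 34.1 and 25.6 CPM against 101, 88 and 104 CPM (1.65 ± 0.15, adjusted p = 2.9e-07). Tbx3, a naive transcription factor, was at 48.3, 43.3 and 42.8 CPM against 117, 128 and 147 CPM (1.54 ± 0.14, adjusted p = 3.2e-07). In all 3 the lowest TKO_96h library was above the means of TKO_40h and WT_40h as well. Klf4, another naive factor, was at 34.5, 32.8 and 26 CPM against 69, 75 and 91.8 CPM (1.34 ± 0.16, adjusted p = 5.8e-06). Zfp57, which keeps imprints with Trim28, was at 170, 209 and 183 CPM against 326, 353 and 368 CPM (0.90 ± 0.11, adjusted p = 9.1e-06). Sox2 was at 288, 287 and 283 CPM against 286, 285 and 285 CPM, and Nanog at 312, 250 and 268 CPM against 288, 233 and 262 CPM, both named after their values were seen and with log2 fold changes of 0.00 and -0.09. The 2 lower members were Klf2 and Tdgf1, the co-receptor of Nodal.

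Genes of the formative and primed epiblast were lower or not called, with few exceptions. Of 25 genes 7 were lower, against 10.7% of all genes, and 2, the targeted Dnmt3a and Dnmt3b, were higher. The 2 are a share near the 8.82% of all genes called higher, and 4 were higher without TKO_48h replicate 1. Lef1, a WNT effector, was at 92.3, 75.7 and 76.3 CPM in TKO_48h and 9.97, 17.9 and 18.9 CPM in TKO_96h (-2.38 ± 0.18, adjusted p = 1.3e-08). Fgf5, the classical marker of primed epiblast, was at 9.79, 7.89 and 13.1 CPM against 2.42, 2.1 and 1.32 CPM (-2.40 ± 0.31, adjusted p = 2.1e-05). Otx2, a regulator of the formative state that opposes germ cell fate, was at 75.6, 66.6 and 84.1 CPM against 39.7, 43.1 and 38.8 CPM (-0.90 ± 0.12, adjusted p = 3.1e-05). These 3 lay below TKO_40h too: TKO_96h minus TKO_40h was -2.95 for Lef1, -3.81 for Fgf5 and -1.20 for Otx2, each with an adjusted p of at most 1.4e-06. Cldn6 and Cldn7, counted with the epithelial genes, are 2 of the 7. The values were read after 4 days of induction, and the state of the cells at the end of priming was not measured.

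Genes of the Nodal pathway were lower in large part. Of 17 genes 9 were lower and 2 higher (1 higher without replicate 3 of either group). The list's sum was 2397, 2207 and 2294 CPM in TKO_48h and 1453, 1450 and 1496 CPM in TKO_96h. In TPM the sums overlapped, 464 to 637 in TKO_48h and 433 to 488 in TKO_96h. The co-receptor Tdgf1 was at 662, 605 and 635 CPM against 379, 376 and 367 CPM (-0.76 ± 0.10, adjusted p = 1.6e-05). The feedback inhibitors Lefty1 and Lefty2, which are targets of the pathway, fell by 1.01 ± 0.15 and 0.98 ± 0.13. Skil, a repressor of Smad proteins, was at 458, 492 and 452 CPM against 204, 195 and 185 CPM (-1.26 ± 0.10, adjusted p = 2.6e-08). Furin, a protease that matures Nodal, fell by 1.26 ± 0.18, a call lost with the length offset (-0.65, adjusted p = 0.33), under which 5 members of the list were lower. The ligand Nodal itself, named after its values were seen, was not called (-0.27, adjusted p = 0.22). The BMP response, the inducing signal of the culture, had 1 of 17 members lower and none higher, against 10.7% and 8.82% of all genes. This was the inhibitor Smad6 (-1.23 ± 0.30, adjusted p = 0.0066, and 0.1 with the length offset). The direct BMP target Id1, named after its values were seen, was at 60.3, 55.9 and 53.8 CPM against 66.9, 53.3 and 58.4 CPM, with overlapping groups.

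WNT effectors and targets went both ways, 6 of 22 lower and 4 higher, against 10.7% and 8.82% of all genes. Ccnd1, a G1 cyclin, was at 48.6, 35 and 45.6 CPM in TKO_48h and 71.3, 65.9 and 84.8 CPM in TKO_96h (0.78 ± 0.16, adjusted p = 0.0014). Notum, a secreted inhibitor, rose by 1.37 ± 0.32 and Nkd1, an intracellular one, fell by 1.41 ± 0.37. Tcf7l1, a repressor that opposes naive genes, rose by 0.54 ± 0.12, a call lost with the length offset (adjusted p = 0.092). The lower count of 6 was 2 without TKO_96h replicate 1 and 4 without TKO_48h replicate 1. In the ERK feedback list 5 of 19 were lower and 1 higher, the higher count being a share below that of all genes. Dusp4, an ERK phosphatase, fell by 0.83 ± 0.18 and Spry2, a feedback inhibitor, rose by 0.51 ± 0.12 (adjusted p = 0.0063, and 0.053 with the length offset). Dusp5 (-0.80 ± 0.25, adjusted p = 0.028) was not called without TKO_48h replicate 2 (0.082), TKO_96h replicate 1 (0.13) or TKO_96h replicate 2 (0.064), and the list count was then 3 without TKO_96h replicate 2. Among 24 immediate early genes 10 were lower and 3 higher, and 6 were lower without TKO_48h replicate 1 and 6 without TKO_96h replicate 1. Dusp1, a stress kinase phosphatase, was at 36.6, 26.5 and 33.4 CPM against 8.61, 15.1 and 6.86 CPM (-1.65 ± 0.26, adjusted p = 0.00013). Jun fell by 1.16 ± 0.27 (adjusted p = 0.0053). Egr1, a growth factor response gene, rose from 44, 43.1 and 28.1 CPM to 69.3, 86.4 and 77.5 CPM (1.02 ± 0.15, adjusted p = 9.2e-05), while its TKO_40h mean was 251 CPM.

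In lists of chromatin regulators, some members were higher in TKO_96h than in TKO_48h by small factors, and TKO_48h had the lowest mean sums of all groups. The shares over all genes were 8.82% called higher and 10.7% lower. Of 21 genes of the DNA methylation machinery 8 were higher and 2 lower, with a median of 0.12, and the 8 include the 3 targeted genes. The lower count was 1 without TKO_48h replicate 1, TKO_96h replicate 1 or TKO_96h replicate 3. Mean sums of the list were 3277 CPM in TKO_48h, 4167 CPM in TKO_96h and 4034 CPM in TKO_40h. Hells, a remodeller needed for methylation, was at 469, 443 and 495 CPM in TKO_48h and 799, 835 and 764 CPM in TKO_96h (0.77 ± 0.09, adjusted p = 5.3e-06). Uhrf1, which guides Dnmt1, was at 504, 386 and 421 CPM against 610, 616 and 629 CPM (0.50 ± 0.10, adjusted p = 0.0015). Tet1, a 5-methylcytosine oxidase, was at 646, 825 and 680 CPM against 946, 1100 and 1249 CPM (0.62 ± 0.11, adjusted p = 0.00067). For Hells the TKO_40h mean of 758 CPM was close to TKO_96h, and TKO_96h minus TKO_40h was 0.08 (adjusted p = 0.66). Of 23 genes of the PRC1.6 complex and H3K9 silencing, which repress germline genes, 9 were higher and none lower. The higher count was 4 in a fit of the 6 libraries alone and 5 with the length offset. It was 7 without TKO_48h replicate 1 and 6 without TKO_96h replicate 1. Mean sums of the list were 3842 CPM in TKO_48h, 4651 CPM in TKO_96h and 4462 CPM in TKO_40h. Atf7ip, a partner of the H3K9 methyltransferase Setdb1, was at 193, 164 and 204 CPM against 293, 360 and 367 CPM (0.86 ± 0.11, adjusted p = 2.5e-05). TKO_96h minus TKO_40h was 0.2 for Atf7ip (adjusted p = 0.29). Cbx3, Morc3, Rnf2 and Wdr5 rose by 0.51, 0.41, 0.47 and 0.40. Of these, Morc3 (adjusted p = 0.23) and Rnf2 (0.49) were not called with the length offset, Rnf2 also not without TKO_96h replicate 1 (0.077), and Wdr5 not in the 6 libraries alone (0.062). In PRC2, which deposits H3K27 methylation, 3 of 12 were higher and 1 lower, with a median of -0.02. The lower count is a share below that of all genes, and 8 members were not called. Mean sums of the list were 2488 CPM in TKO_48h, 2633 CPM in TKO_96h and 2860 CPM in TKO_40h. Eed, a core subunit, was at 43.6, 55.6 and 26.4 CPM against 98.7, 81 and 89.8 CPM (1.1 ± 0.26, adjusted p = 0.0051, and 0.054 in a robust fit). Aebp2 and Rbbp4 rose by 0.42 and 0.48, and the enzyme Ezh1 fell by 0.67. With the length offset the calls of Rbbp4 (0.28, adjusted p = 0.15) and Ezh1 (-0.22, adjusted p = 0.59) ended.

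Imprinted genes, which are marked by parental DNA methylation and are known to lose that control without Dnmt1, were lower in part. Of 23 paternally expressed genes tested 5 were lower and 1 higher, and of 13 maternally expressed genes 5 were lower and 1 higher. Over all genes, 10.7% were called lower and 8.82% higher. The higher paternal gene was called in neither of the fits without TKO_48h replicate 2 or 3, nor without TKO_96h replicate 1 or 3. Peg10, a placental gene derived from a retrotransposon, was at 2098, 1458 and 1878 CPM in TKO_48h and 369, 468 and 410 CPM in TKO_96h (-2.12 ± 0.13, adjusted p = 3.6e-10). Its means were 3116 CPM in TKO_40h and 1233 CPM in WT_40h, so that the TKO_96h libraries lay below WT_40h as well. Sgce, the neighbour that shares its control region, was at 29.7, 30.9 and 24.1 CPM against 4.38, 5.32 and 6.33 CPM (-2.39 ± 0.22, adjusted p = 2.4e-07). Peg3, a zinc finger gene, was at 403, 395 and 392 CPM against 136, 219 and 183 CPM (-1.15 ± 0.15, adjusted p = 2e-05). Gnas, a G protein alpha subunit, was at 300, 243 and 254 CPM against 111, 119 and 137 CPM (-1.12 ± 0.11, adjusted p = 6.3e-07), and Igf2r, a scavenging receptor, fell by 0.53. Magel2 was at no more than 1.7 CPM in TKO_48h and had no count in TKO_96h, at least 8.4-fold lower. The maternal count of 5 was 3 without TKO_48h replicate 1, TKO_96h replicate 1 or TKO_96h replicate 2. The calls of Inpp5f, Cd81, Cobl and Ppp1r9a (-0.59, -0.41, 0.29 and -0.56) each ended without at least 1 library, Ppp1r9a only without TKO_48h replicate 2 (-0.33, adjusted p = 0.069), and Cobl, the higher maternal gene, without any 1 of the 6.

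Cell cycle genes split by phase. Of 25 genes of G1 and S phase 10 were higher and 4 lower, with a median of 0.36. Of 24 genes of G2 and M phase 1 was higher and 6 lower. The shares over all genes were 8.82% higher and 10.7% lower. The lower G1 and S count of 4 was 2 without TKO_48h replicate 3, TKO_96h replicate 2 or TKO_96h replicate 3, and 0 with the length offset. Pcna, the sliding clamp of DNA replication, was at 146, 121 and 128 CPM in TKO_48h and 244, 216 and 197 CPM in TKO_96h (0.74 ± 0.12, adjusted p = 0.00017). Tyms, which makes thymidylate, was at 69.4, 75.3 and 73.4 CPM against 149, 108 and 124 CPM (0.80 ± 0.12, adjusted p = 8.9e-05). Mcm2, a helicase subunit, rose by 0.50 ± 0.10 (adjusted p = 0.001, and 0.053 with the length offset). Top2a, the topoisomerase of dividing cells, was at 1161, 997 and 1152 CPM against 648, 785 and 744 CPM (-0.60 ± 0.10, adjusted p = 0.00022). The mitotic genes Kif23, Bub1 and Nusap1 fell by 0.72, 0.64 and 0.54, and Birc5, survivin, rose by 0.71. Kif23 and Nusap1 were not called with the length offset (adjusted p = 0.092 and 0.18). Ccnd2, a G1 cyclin, fell by 2.82 ± 0.28 in the counts (44.5, 20.1 and 34.4 CPM against 3.62, 5.46 and 4.75 CPM, adjusted p = 8.8e-07), but its value was 0.27 (adjusted p = 0.87) with the length offset. Its main transcript, 6330 bases long, held 257.9, 133.8 and 238.5 estimated counts in TKO_48h and 14.9, 29.3 and 23.7 in TKO_96h.

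Replication-dependent histones have mRNAs that end without a poly(A) tail and are counted in libraries of total RNA. Of 26 members 12 were higher and none lower, against 8.82% and 10.7% of all genes. This rests in part on 1 library: without TKO_96h replicate 1, which had the highest sum (10370 CPM, against 5613 and 5858 CPM in replicates 2 and 3), 4 were higher. The sums in TKO_48h were 6189, 3362 and 5223 CPM, so that the groups overlapped. The linker histone gene Hist1h1a was at 466, 265 and 394 CPM against 1071, 529 and 572 CPM (0.95 ± 0.21, adjusted p = 0.0029, and 0.051 in a robust fit). Hist2h2bb, at 165, 95.9 and 165 CPM against 750, 312 and 304 CPM, was among the largest increases. Histone genes are near-identical to each other, and their counts are uncertain. Of 35 cytosolic ribosomal protein genes 1, Rpl3, was higher (0.39 ± 0.11, adjusted p = 0.018), a share below that of all genes, and none lower. That call ended without TKO_48h replicate 3 (adjusted p = 0.082) or TKO_96h replicate 1 (adjusted p = 0.086), while 3 genes were lower without TKO_48h replicate 2 and 5 without TKO_96h replicate 1.

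Stress pathways held genes that changed in each direction, against 8.82% of all genes called higher and 10.7% called lower. Among 27 p53 targets 6 were higher and 3 lower. Trp53 itself was at 215, 160 and 207 CPM in TKO_48h and 274, 310 and 293 CPM in TKO_96h (0.59 ± 0.11, adjusted p = 0.0008). Its classical target Cdkn1a, a cell cycle inhibitor, was at 65.8, 49.1 and 56 CPM against 42.7, 32.2 and 38.9 CPM (-0.58 ± 0.15, adjusted p = 0.0085), a call lost with the length offset (0.063) and without TKO_96h replicate 2 (0.058). The apoptosis gene Pmaip1 fell by 0.78 ± 0.15, and Rrm2b, a ribonucleotide reductase subunit, rose from 12.7, 25.4 and 11.5 CPM to 95.9, 48.3 and 31.5 CPM (1.81 ± 0.33, adjusted p = 0.00057). The higher count of 6 was 3 without TKO_48h replicate 3 or TKO_96h replicate 3, and 2 with the length offset, and the lower count of 3 was 1 without TKO_96h replicate 2. In the integrated stress response, which answers amino acid or protein folding stress, 5 of 25 were lower and 1 higher, against 3 lower without TKO_96h replicate 3 and 3 higher without TKO_48h replicate 1. Stc2, a secreted glycoprotein that is also in the hypoxia list, was at 35.6, 39.7 and 34.5 CPM against 2.11, 1.68 and 2.24 CPM (-4.17 ± 0.25, adjusted p = 4.5e-10), and Vldlr, a lipoprotein receptor, fell by 2.45 ± 0.45. Among 24 heat shock proteins and chaperones 6 were higher and 4 lower, and 3 were higher without TKO_48h replicate 2. The inducible Hspa1a and Hspa1b fell by 3.27 and 1.92, with counts that may be split between these near-identical copies. The mitochondrial chaperone Hspd1 rose by 0.62 ± 0.11 (556, 450 and 577 CPM against 898, 790 and 745 CPM), and the collagen chaperone Serpinh1 fell by 0.64 ± 0.12.

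Markers of other lineages, which the aggregates could hold, were mostly at low levels in both groups and changed in each direction. Over all genes, 8.82% were called higher and 10.7% lower. Of 23 mesoderm genes tested 4 were lower and 2 higher, the higher count being a share near that of all genes. Their sum was 222, 203 and 217 CPM in TKO_48h and 245, 248 and 318 CPM in TKO_96h. The mesoderm factor T had no count in TKO_96h and Msgn1 none in either group. Vim, vimentin, a filament protein of many cell types, made up much of the sum (88, 66.1 and 87.1 CPM against 157, 169 and 230 CPM, 1.21 ± 0.14). Eomes and Hand1 fell by 1.74 and 1.83. The lower count of 4 was 2 without TKO_48h replicate 1, TKO_48h replicate 2 or TKO_96h replicate 2. Of 22 endoderm genes 5 were lower and none higher, with sums of 288 to 419 CPM and 265 to 351 CPM, which overlap. The lower count was 2 in a fit of the 6 libraries alone, with or without the replicate block, and 8 with DESeq2. The higher count was 2 without TKO_48h replicate 1 and 1 without TKO_96h replicate 2. The visceral endoderm genes Afp and Apoa1 had no count in TKO_96h, at least 24.8-fold and 22.0-fold lower, from means of 3.33 and 2.95 CPM. Of 19 trophoblast and amnion genes 7 were lower and 1 higher. Sums were 1732 to 2389 CPM in TKO_48h and 525 to 627 CPM in TKO_96h, most of them Peg10, which is also imprinted. The 7 were Krt8, Krt18, Peg10, Dlx3, Eomes, Hand1 and Tfap2c, and each is also in another list given here. No member was higher without TKO_48h replicate 1 or 3 or TKO_96h replicate 1 or 3. The defining trophoblast genes Tpbpa, Prl3d1, Prl2c2 and Psg17 had no count in either group. Of 20 neural genes 4 were higher and 3 lower, with sums of 392 to 447 CPM and 510 to 592 CPM, and 2 were higher without TKO_48h replicate 3. Stmn2, a microtubule regulator, was at 59.6, 52.8 and 73.9 CPM against 158, 103 and 139 CPM (1.1 ± 0.15, adjusted p = 2.7e-05), and Tubb3 rose by 1.30 ± 0.25, while Elavl3 and Irx3 fell. The Irx3 call ended in a fit of the 6 libraries alone (adjusted p = 0.094) and with the replicate block on these 6 (0.079). Of 14 surface ectoderm genes 3 were lower and none higher, and Krt5, Krt14 and Krt15 had no count in TKO_96h. The neural sum was higher in TKO_96h, and so was the mesoderm sum, much of it Vim. The median log2 fold change of the 23 mesoderm genes was nevertheless -0.68. In 10 of them all 3 TKO_96h libraries lay below all 3 TKO_48h libraries, and in 2 above. The shares over all genes were 17.1% below and 15.6% above. The trophoblast sum fell with the keratins and Peg10 that belong to that list. The part of these lineages in the fall of the keratins and of Peg10 was not tested.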

How the data were processed

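Total RNA of cell pellets was sequenced with a stranded low-input kit, per the labels' protocols. The authors trimmed reads with Trim Galore 0.6.2 and quantified transcripts with kallisto on GRCm38, per the submitters' processing notes; no version of kallisto and no transcript set is named there. The deposited estimated counts per transcript, made by the authors with kallisto, were summed per gene (GENCODE M21; 116728 of 119414 transcripts matched) and rounded. The deposited TPM values were used only to compare genes within a group and for the sums of the germline, matrix and Nodal lists.

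All 12 libraries were fitted with 1 mean per group in edgeR 4.0.16 (quasi-likelihood test, TMM, filterByExpr with a minimum count of 10, Benjamini-Hochberg adjusted p below 0.05); DESeq2 1.42.0 and 15 other settings were alternatives. Every adjusted p, unless another setting is named, comes from this fit, and p-values measure only the spread between these samples, which the labels do not tie to separate cultures. The self-test used simulated data.

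The text names the 12 largest changes in each direction (called, groups not overlapping, 5 CPM or more in the higher group, no predicted genes or pseudogenes), 5 in each direction at 100 CPM or more, up to 5 called members per list by smallest adjusted p (the 2 of highest CPM where none was called), and the Dnmt genes. Some genes that this rule names are not reported here. Members and lists were chosen with earlier results of these data known, and motifs, printed windows and plotted genes after values were seen. A few list symbols were updated to those of the files (Ccn1, Ccn2, Fam208a). Of 939 listed genes, 930 were in the files and 844 tested. For symbols with several gene IDs the one with most counts was used. Motif positions count from the transcript start.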

Additional observations from a re-analysis of the deposited data

How the results depend on the processing

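The 16 alternatives left 1639 to 3489 genes called, against 3158. The effective length offset moved the counts most, to 1639 genes, 692 higher and 947 lower. It kept 48.4% of the reported calls, and 23 of the reported calls had the opposite sign under it. A fit of the 6 libraries alone called 2190 genes, of which 899 were higher. Leaving out 1 library gave 2345 genes (without TKO_96h replicate 1) to 2997 (without TKO_48h replicate 1). Ccnd2 reversed with the length offset, to a log2 fold change of 0.27 (adjusted p = 0.87, edgeR); the cause was not tested. All 197 named genes were called, Moap1 with an edgeR adjusted p that rounds to 0.05, and 150 were called in every alternative. Over 3138 values of named genes under the alternatives, 3013 kept direction and call, 124 kept direction but lost the call, and 1 reversed. Members called over all lists numbered 337, and 236 to 359 under the alternatives.

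Deviations of same-numbered TKO_48h and TKO_96h libraries from their group means correlated at 0.014, 0.039 and -0.06. Whether same-numbered libraries shared a batch or day was not tested. With a replicate block 3176 genes were called over 12 libraries and 2486 over the 6, against 3158 and 2190 without it. Among the TKO_48h libraries, only replicate 1 correlated best with the TKO_96h library of its own number.

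With 3 libraries a group, genes of a few counts carry wide errors, and values at 0 give lower bounds only. Gene counts cannot separate transcripts of knockout alleles.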

Other observations

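Some genes of other lists differed with the priming time. In serine, threonine and one-carbon metabolism 5 of 21 genes were higher and 1 lower, against 8.82% and 10.7% of all genes. Without TKO_48h replicate 2, 4 were lower. Tdh, the threonine dehydrogenase that mouse stem cells depend on, was at 32.3, 31.8 and 27.6 CPM in TKO_48h and 80.2, 90 and 82.3 CPM in TKO_96h (log2 fold change 1.46 ± 0.14, edgeR adjusted p = 5.3e-07). Shmt1, a serine hydroxymethyltransferase, and Mat2a, which makes the methyl donor S-adenosylmethionine, rose by 0.78 each. Among 14 iron genes 3 were higher and 3 lower. Tfrc, the transferrin receptor, was at 757, 661 and 649 CPM against 350, 336 and 311 CPM (-1.05 ± 0.10, adjusted p = 4.1e-07), while the ferritin subunit genes Fth1 and Ftl1 rose by 0.7 and 0.65. The ferritin genes have many pseudogenes, and their counts are uncertain. The iron exporter Slc40a1 was at 9.79, 5.08 and 8.38 CPM against 0.604, 0.7 and 0.132 CPM (-3.99 ± 0.56, adjusted p = 4.8e-05). Aco1, an iron-sensing RNA-binding protein, fell by 0.72 ± 0.15 (adjusted p = 0.0023, and 0.061 with the length offset). The other 8 genes were not called.

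Of 25 interferon and MHC genes 6 were lower and 1 higher, against 10.7% and 8.82% of all genes. Irf1, an interferon-induced factor, was at 54.5, 51 and 56.1 CPM against 18.6, 15.4 and 17 CPM (-1.66 ± 0.16, adjusted p = 4.2e-07), and the MHC class I gene H2-K1 was at 71, 55 and 53.3 CPM against 29.6, 16 and 17.5 CPM (-1.51 ± 0.21, adjusted p = 4.4e-05). Eif2ak2, an RNA sensor, was the higher one (0.59 ± 0.16, adjusted p = 0.015), a call lost without TKO_48h replicate 3 (0.062) or TKO_96h replicate 2 (0.084). Of 19 Hox genes 4 were lower and none higher, and 2 were lower without TKO_96h replicate 3. Hoxa10 was at 24.6, 17.7 and 15.8 CPM against 8.61, 7.56 and 5.01 CPM (-1.45 ± 0.28, adjusted p = 0.0011). Of 18 endothelial and blood genes 2 were lower, a share near the 10.7% of all genes. These were the VEGF receptors Flt1 (-2.76 ± 0.46, adjusted p = 0.00027) and Flt4 (-1.14 ± 0.31, adjusted p = 0.014; 0.071 without TKO_96h replicate 1). Of 19 genes of the 2-cell-like state 1 was lower, a share below that of all genes. This was Zscan4a (-2.02 ± 0.57, adjusted p = 0.017), which has near-identical copies and was not called without TKO_96h replicate 1 (0.054) or 3 (0.061). Nor was Zscan4a called in a fit of the 6 libraries alone (adjusted p = 0.1) or with the replicate block on these 6 (0.17).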
